A study of Mus musculus with 22 samples.

Results

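The levels of 10 cathepsin genes were followed one by one in bulk RNA sequencing of cells sorted from the aorta-gonad-mesonephros (AGM) region of the mouse embryo, where endothelium gives rise to the first blood stem cells. The genes, Ctsa, Ctsb, Ctsc, Ctsd, Ctsf, Ctsh, Ctsk, Ctsl, Ctss and Ctsz, were taken by name and are 10 of the 24454 genes in the count table. Each of the 22 libraries held 25 untreated cells from C57BL/6 embryos, sorted as VE-Cadherin-positive and then by the CD44 and Kit proteins. CD44Neg (labelled endothelial, 10 libraries) was sampled 4 times at E9.5, 3 times at E10 and 3 times at E11, and CD44LoKitNeg (labelled hemogenic endothelial, 6 libraries) 1, 2 and 3 times. CD44LoKitPos (labelled Pre-HSPC, a stage before the haematopoietic stem and progenitor cell, 3 libraries) came once from E9.5 and 2 times from E10, and the 3 libraries of CD44High (labelled HSPC) all came from E11. The populations are sort gates on 1 mouse strain. The sources used here do not give whether embryos were pooled or libraries came from separate litters, so the p-values below measure only the spread between these libraries, which may be technical.

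Cathepsins are proteases that mostly work inside lysosomes. They are made as inactive precursors and are carried to the lysosome by mannose phosphate receptors, and the cysteine proteases among them are held in check by cystatins. Ctsd is an aspartic protease, Ctsa a serine carboxypeptidase that also protects other lysosomal enzymes, and the remaining members are papain-like cysteine proteases. Among these, Ctsb, Ctsz, Ctsc and Ctsh trim protein ends, whereas Ctsl, Ctss, Ctsf and Ctsk cut within the chain. Macrophages are rich in these enzymes, which digest what the cells have engulfed.

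Between 3912350 and 8657546 reads were counted per library, and levels are given as CPM, counts relative to the library total, scaled by TMM (normalized CPM). All 6 endothelial markers examined were detected in every CD44Neg, CD44LoKitNeg and CD44LoKitPos library, but Cdh5, which encodes VE-Cadherin, had 0 counts in the 3 CD44High libraries. The summed endothelial markers there were 11.9 to 73.7 normalized CPM, against 1767 to 3949 in CD44Neg. In contrast, 13 of 13 macrophage markers were detected in each CD44High library, with a sum of 4107 to 6814 normalized CPM. The same sum was 3.21 to 24.9 in CD44Neg, 0.0 to 80.8 in CD44LoKitNeg and 246 to 286 in CD44LoKitPos, and Adgre1 and the C1q genes were at 0 in those 3 populations. The summed granulocyte and mast cell markers were at 7931, 1025 and 2342 normalized CPM in CD44High replicates 20, 21 and 22, and at 71.5 to 233 in CD44LoKitPos. Most of the CD44High sum was S100a8 in replicates 20 and 22 (6308 and 1917) and Mpo in replicate 21 (898), where S100a8 had no read. The CD44High libraries thus carry RNA that their HSPC label does not name, and they are called by their gate below. The part of these cells in any cathepsin difference was not tested, and in bulk libraries fewer cells of a type and less RNA per cell cannot be told apart.

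Promoter sequences were read for the genes with the most restricted patterns, and for the E-box CACGTG that lysosomal genes share as the core of the CLEAR element. RefSeq windows of 250 bases before the start (GRCm38.p6) were found for 8 of the 10 genes, 9 windows in all, and Ctsb and Ctsh had none. Motifs were searched on both strands, and were picked with these sequences in view. Shown first are Ctss (chr3:95526536-95526785, plus strand), found in CD44High alone, with a core of the interferon response element, GAAA repeated after 2 free bases, in capitals, and Ctsc (chr7:88277835-88278084, plus strand), which differed most widely between populations among the genes seen in all of them, with the PU.1 core GAGGAAGT (here as its reverse complement) in capitals.
Ctss: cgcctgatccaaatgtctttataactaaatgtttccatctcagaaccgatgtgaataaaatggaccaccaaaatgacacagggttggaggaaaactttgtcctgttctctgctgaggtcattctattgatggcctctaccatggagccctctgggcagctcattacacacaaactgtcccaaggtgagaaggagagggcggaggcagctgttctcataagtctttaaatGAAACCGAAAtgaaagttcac
Ctsc: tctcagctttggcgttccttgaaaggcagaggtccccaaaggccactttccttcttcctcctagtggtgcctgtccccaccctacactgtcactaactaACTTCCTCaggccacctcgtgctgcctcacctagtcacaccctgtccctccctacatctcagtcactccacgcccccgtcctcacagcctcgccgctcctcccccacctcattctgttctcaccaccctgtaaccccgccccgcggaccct
Across all 32851 windows of the same length, 2.98% held the GAAA repeat, 2.44% held GAGGAAGT and 6.02% held CACGTG. The E-box occurred 2 times before the RefSeq start of Ctsd, once each before those of Ctsf and Ctsl, and once in 1 of the 2 windows of Ctsa, and the sites are shown with up to 10 bases on either side and the E-box in capitals.
Ctsd (chr7:142388057-142388077, minus strand): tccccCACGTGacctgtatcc
Ctsd (chr7:142387910-142387935, minus strand): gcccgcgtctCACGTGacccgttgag
Ctsa (chr2:164833751-164833772, plus strand): agcaaactgtCACGTGatgcag
Ctsf (chr19:4855076-4855101, plus strand): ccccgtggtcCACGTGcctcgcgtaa
Ctsl (chr13:64370741-64370766, minus strand): cgttagaagcCACGTGctgatctaaa
The Ctsd sites begin 245 and 98 bases before the start, that of Ctsa 12, that of Ctsf 79 and that of Ctsl 236. The sites of Ctsa and Ctsl and the nearer one of Ctsd lie inside the GENCODE M21 gene spans given below, and the Ctsa window at the start of its span held no E-box. Ctsz and Ctsk held none of the 3 motifs in their windows. A match is only a match of letters: no binding was measured.

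**Figure D1:**
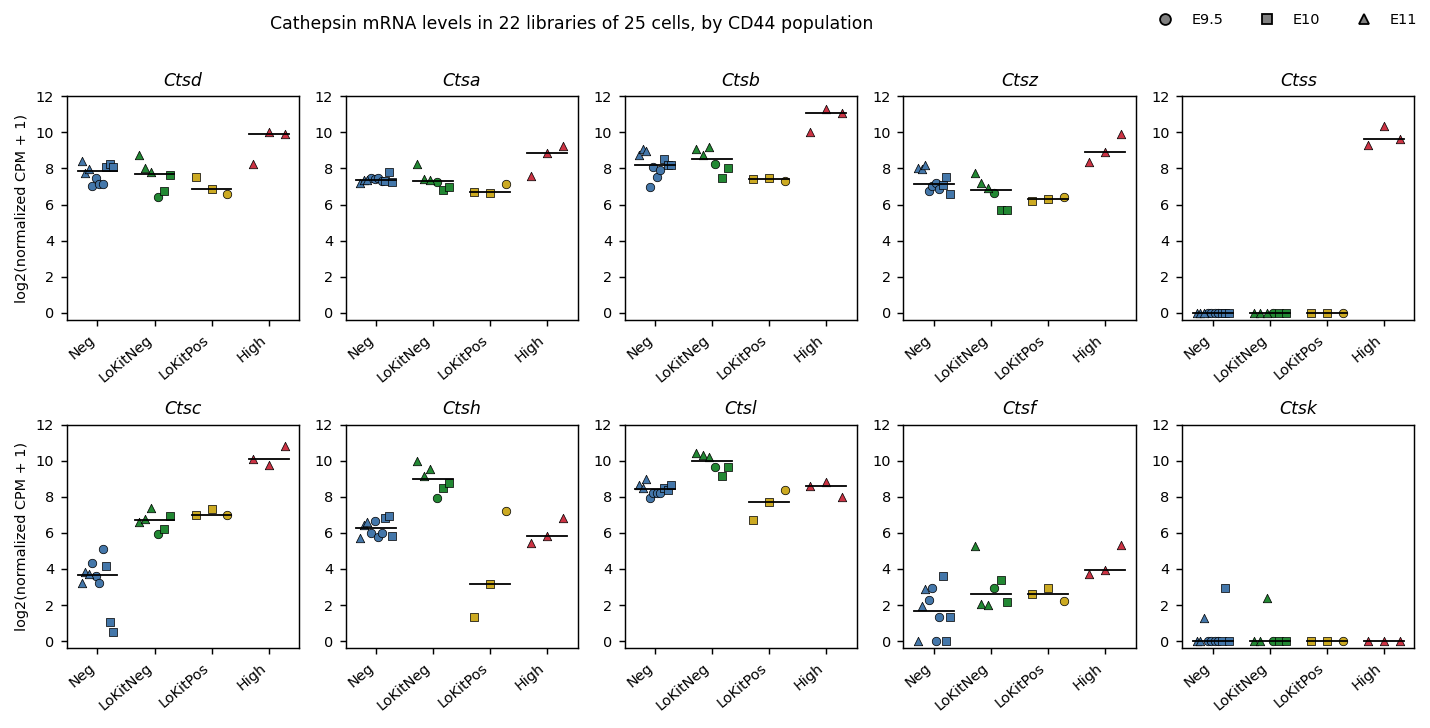
Level of each cathepsin gene in every library, on the log2 scale of normalized CPM plus 1, with symbols for stage and a black line at each population's median. Ctss lies at 0 in 19 libraries and between 638.7 and 1315.2 normalized CPM in CD44High, while Ctsh and Ctsl are highest in CD44LoKitNeg.

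The clearest on-off pattern was that of Ctss (chr3:95526786-95556403, plus strand), the cysteine protease that degrades the invariant chain of MHC class II molecules in antigen-presenting cells. It had no read in any of the 19 libraries of CD44Neg, CD44LoKitNeg and CD44LoKitPos, whereas the CD44High replicates held 3231, 4946 and 2874 reads. These correspond to 638.7, 1315.2 and 780.8 normalized CPM (912 ± 357, SD, n = 3). With up to 3 counts per library allowed for a count of 0, which covers counting error only, Ctss was at least 1506-fold higher in CD44High than in CD44Neg. The bound was at least 2179-fold against CD44LoKitNeg and at least 2078-fold against CD44LoKitPos. The E11 libraries of CD44Neg and CD44LoKitNeg were among those without a read. As no CD44LoKitPos library came from E11, stage and population cannot be told apart against that population. Ctss passed the filter on low counts through CD44High alone, so no p-value is given for it and it is left out of the counts of members below. The genes whose log2 CPM followed Ctss most closely over the 22 libraries were Adgre1, which encodes a macrophage surface receptor, Ms4a6c and Gpr141 (Pearson r of 1, 1 and 0.9999). These r values rest on 3 libraries set against zeros.

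Ctsk (chr3:95499256-95509362, plus strand), the collagen-degrading enzyme of osteoclasts and the neighbour of Ctss on chromosome 3, was close to absent. It was detected in only 3 libraries, with 9 reads in CD44Neg replicate 3, 30 reads in CD44Neg replicate 9 and 28 reads in CD44LoKitNeg replicate 13. All CD44LoKitPos and CD44High libraries had 0 counts, which allows up to 0.815 normalized CPM in the shallowest of these libraries. The gene did not pass the filter on low counts in any comparison of populations.

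Ctsc (chr7:88278085-88310888, plus strand) encodes dipeptidyl peptidase I, which activates the serine proteases of granulocyte, mast cell and killer cell granules. Its levels were 0.446 to 33.5 normalized CPM in CD44Neg (median 11.8) and 61.2 to 164.3 in CD44LoKitNeg (median 103). CD44LoKitPos libraries lay at 128.4, 161.1 and 126.2 normalized CPM and CD44High libraries at 1110.5, 863.9 and 1813.7. Every CD44LoKitNeg and CD44LoKitPos library was above every CD44Neg library, and all CD44High libraries were above the rest. Ctsc was higher in CD44LoKitNeg than in CD44Neg by 3.06 ± 0.51 on the log2 scale (value and SE, here and below, quasi-likelihood test of edgeR, adjusted p = 3.1e-04 after Benjamini and Hochberg). At E11 alone the difference was 3.50 (edgeR, adjusted p = 0.00124), and at E9.5 and E10 alone it was 3.10 and not called (edgeR, adjusted p = 0.0196). It was higher by 3.46 ± 0.51 in CD44LoKitPos than in CD44Neg (edgeR, adjusted p = 1.2e-04). The middle pair, CD44LoKitPos and CD44LoKitNeg, did not differ beyond their spread (log2 fold change 0.41 ± 0.60, edgeR, adjusted p = 0.717).

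In CD44High, Ctsc was higher than in CD44Neg by 6.65 ± 0.54 on the log2 scale (edgeR, adjusted p = 4.1e-09). This was the widest fitted difference among the members with reads in every population. Against CD44LoKitNeg the log2 fold change was 3.60 ± 0.60 (edgeR, adjusted p = 7.8e-05). At E11 alone these were 6.74 (edgeR, adjusted p = 4.3e-06) and 3.24 (8.9e-05). Against CD44LoKitPos it was 3.19 ± 0.76 and just missed the threshold (edgeR, adjusted p = 0.0105), and it was called when CD44Neg replicate 7, 9 or 10 was left out (lowest adjusted p 0.00196), with no filter (0.00795), with DESeq2's size factors (0.00921) and with DESeq2's own test (1.6e-04). It was not called with stage in the fit (0.0494), though no stage holds both populations, or in the other fits without 1 library (adjusted p up to 0.0527). Of the 8 granule proteases that a list of Ctsc substrates and relatives held, 1 was tested: Prtn3, proteinase of neutrophil granules, was at 29.8 to 60.7 normalized CPM in CD44LoKitPos and 84.0 to 153.4 in CD44High, but at 0 to 2.35 in CD44LoKitNeg. It had no read in CD44Neg.

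Ctsh and Ctsl were the members highest in CD44LoKitNeg. Ctsh (chr9:90054152-90076089, plus strand) encodes an aminopeptidase. It lay between 52.7 and 121.7 normalized CPM in CD44Neg (median 75.4) and between 239.7 and 998.7 in CD44LoKitNeg (median 507), and the libraries of the 2 populations did not overlap. The difference was a log2 fold change of 2.79 ± 0.27 (edgeR, adjusted p = 1.7e-06). At E11 alone it was 3.33 (edgeR, adjusted p = 0.00348), and at E9.5 and E10 alone it was 2.28 but not called (edgeR, adjusted p = 0.0635).

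In CD44LoKitPos, the Ctsh levels of the 3 libraries were far apart. Replicates 17 and 18, both from E10, were at 1.55 and 7.86 normalized CPM, and replicate 19, from E9.5, was at 146.0, above every CD44Neg library. All 3 lay below the lowest CD44LoKitNeg library. Replicate 19 also had the highest summed endothelial markers of the 3, at 1202 normalized CPM against 650 and 990, and the lowest summed blood markers, at 397 against 1120 and 936, and their part in this spread was not tested. The log2 fold change from CD44LoKitNeg of -3.43 ± 0.84 just missed the threshold (edgeR, adjusted p = 0.0103). It was called with DESeq2's size factors (0.00917), no filter (0.00835), DESeq2's own test (1.0e-04) and Rn45s left out (0.00956), but not with stage in the fit (0.0213) or at E9.5 and E10 alone (0.0941). Without replicate 19 it was -6.89 and called (edgeR, adjusted p = 5.9e-06), and without the same library CD44LoKitPos was also called lower than CD44Neg, at -4.09 (edgeR, adjusted p = 1.9e-04). In CD44High, Ctsh was at 43.1, 56.4 and 111.9 normalized CPM. It was not called against CD44LoKitPos (0.44 ± 0.82, edgeR, adjusted p = 0.877), but without CD44LoKitPos replicate 19 it was called higher, at 3.86 (edgeR, adjusted p = 7.0e-04). The CD44High levels lay below every CD44LoKitNeg library (log2 fold change -2.99 ± 0.82, edgeR, adjusted p = 0.00871), and within or just under the CD44Neg range (log2 fold change -0.20 ± 0.67, edgeR, adjusted p = 0.874). The call against CD44LoKitNeg was lost in 8 of the 22 fits that left out 1 library, with adjusted p up to 0.0431. At E11 alone the difference was -3.57 (edgeR, adjusted p = 1.5e-04).

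Ctsl (chr13:64359337-64370890, minus strand), a broad lysosomal endopeptidase, was between 248.6 and 504.6 normalized CPM in CD44Neg (median 346) and between 568.1 and 1396.5 in CD44LoKitNeg (median 1001). Again the 2 sets of libraries did not overlap. Ctsl was higher in CD44LoKitNeg by 1.54 ± 0.18 on the log2 scale (edgeR, adjusted p = 1.5e-05), at E11 alone by 1.67 (edgeR, adjusted p = 0.00612) and at the earlier stages alone by 1.24 (edgeR, adjusted p = 0.00802). The CD44LoKitPos libraries, at 105.2, 210.0 and 328.7 normalized CPM, were all below CD44LoKitNeg, by -2.23 ± 0.34 on the log2 scale (edgeR, adjusted p = 3.7e-04). The CD44High libraries, at 384.9, 457.6 and 251.6, were below it too (-1.47 ± 0.33, edgeR, adjusted p = 0.00155). That last call was lost without CD44High replicate 22 (adjusted p = 0.0141), and at E11 alone the difference was -1.93 (edgeR, adjusted p = 3.5e-04). CD44High and CD44Neg overlapped fully for Ctsl (0.06 ± 0.28, edgeR, adjusted p = 0.913), and at E11 alone the sign turned (-0.26, adjusted p = 0.549). In GENCODE M21, 1742 exon bases of Ctsl are shared with the antisense gene Gm47123 and 395 with the pseudogene Gm49230. The strand setting of the counting was not stated, so such reads cannot be told apart.

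Over the 22 libraries Ctsh and Ctsl followed each other with a Pearson r of 0.8878 on log2 CPM. The genes closest to Ctsh were Sipa1l2 (r = 0.9147), Ctsl and Nrp1, the neuropilin co-receptor of VEGF (r = 0.8738). Closest to Ctsl were the transcription factor gene Nfat5 (r = 0.9031), the nuclear RNA Malat1 (r = 0.9) and Ctsh. Close to Ctsc were Hacd4 (r = 0.9012) and Rnf130 (r = 0.8466). All libraries enter these values, so differences between populations, stages and depth are shared by every pair.

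**Figure D2:**
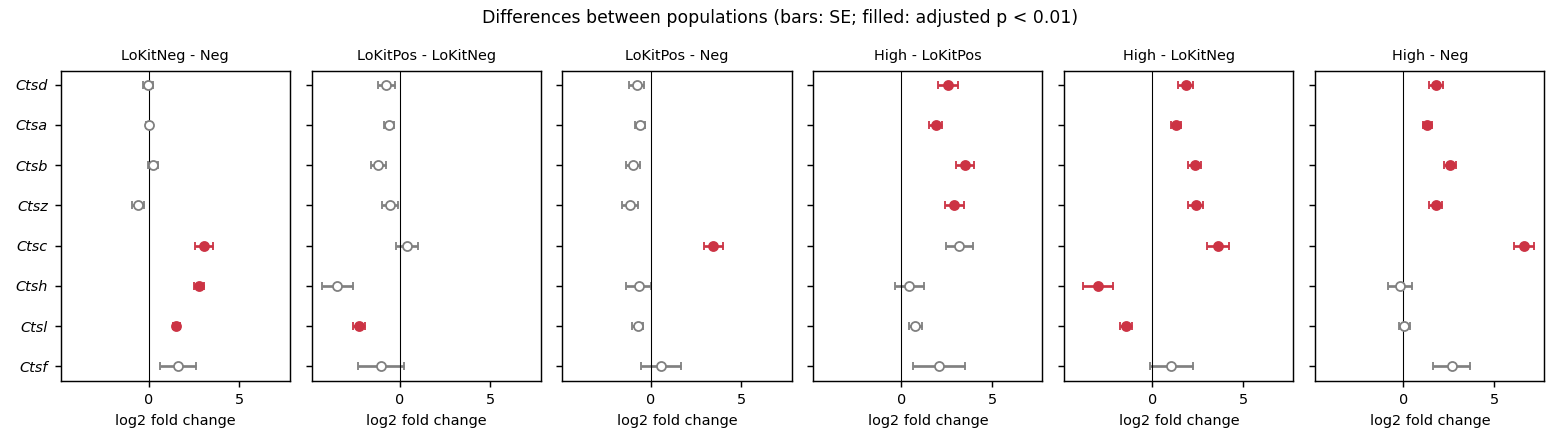
Log2 fold changes between populations for the 8 cathepsin genes with reads in all populations, with bars of 1 standard error and filled points where edgeR's adjusted p was under 0.01. Ctsc, Ctsh and Ctsl are filled in the first panel, and Ctsd, Ctsa, Ctsb and Ctsz in the panels for CD44High.

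Counted over the members, 3 of the 8 tested (Ctsc, Ctsh and Ctsl) were higher in CD44LoKitNeg than in CD44Neg and none was lower, where 10.2% of all genes tested were called and 4.94% were called higher. The members' median log2 fold change was 0.89, against 0.01 over all genes. Of the 8 members with reads in every population, 1 (Ctsl) was lower in CD44LoKitPos than in CD44LoKitNeg, where 4.26% of genes were called and 1.71% were called lower, and 1 (Ctsc) was higher in CD44LoKitPos than in CD44Neg, where 3.48% were called and 2.08% were called higher. These comparisons share libraries, so their values stand side by side and are not independent.

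The comparisons with CD44High held the most calls. Of the same 8 members, Ctsa, Ctsb, Ctsd and Ctsz were called higher than in CD44LoKitPos (4 of 8, where 3.01% of all genes were called and 0.780% were called higher). These 4 and Ctsc were higher than in CD44LoKitNeg, where Ctsh and Ctsl were lower (5 and 2 of 8, where 7.79% of all genes were called higher and 8.17% lower), and the same 5 were higher than in CD44Neg (5 of 8, where 14.4% were called and 7.14% were called higher). The median log2 fold changes of the 8 members were 2.32, 1.57 and 1.79, against -0.02, 0 and -0.02 over all genes tested. With stage in the fit, Ctsb and Ctsz alone of the 8 were called against CD44LoKitPos (edgeR, adjusted p = 1.1e-04 and 0.00879), and Ctsa and Ctsd were not (0.0146 and 0.0186). No stage holds both populations, so this fit assumes that CD44High shares the E11 effect of CD44Neg and CD44LoKitNeg. Stage and population cannot be told apart in it. All CD44High libraries came from E11, so the E11 libraries of the other populations are the nearest match, and values at E11 alone are given with each called gene.

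Ctsb (chr14:63122462-63145923, plus strand), which trims protein ends and can also cut within the chain, was at 1049.4, 2499.2 and 2148.9 normalized CPM in CD44High (1899 ± 756, SD, n = 3). CD44Neg lay between 126.1 and 535.3 (median 292), CD44LoKitNeg between 173.6 and 588.7 (median 368), and CD44LoKitPos at 168.8, 174.9 and 159.9. All CD44High libraries were above all others. The log2 fold changes were 2.55 ± 0.33 against CD44Neg (edgeR, adjusted p = 2.8e-06), 2.32 ± 0.37 against CD44LoKitNeg (6.1e-05) and 3.50 ± 0.50 against CD44LoKitPos (4.4e-05). At E11 alone, the first was 1.89 (edgeR, adjusted p = 0.00124) and the second 1.75 (0.00139), and no left-out library ended any of these calls. CD44Neg and CD44LoKitNeg did not differ beyond their spread (log2 fold change 0.25 ± 0.29, edgeR, adjusted p = 0.616).

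Ctsz (chr2:174427493-174439039, minus strand), a carboxypeptidase, was at 330.5, 486.6 and 951.9 normalized CPM in CD44High. The other populations lay lower, at 94.2 to 296.3 (median 142) in CD44Neg, 51.4 to 212.8 (median 110) in CD44LoKitNeg and 72.0, 78.6 and 85.2 in CD44LoKitPos. No library outside CD44High reached the CD44High range, and all CD44LoKitPos libraries were under all CD44Neg libraries. Ctsz was higher in CD44High by 1.78 ± 0.36 than in CD44Neg (edgeR, adjusted p = 6.4e-04), by 2.38 ± 0.41 than in CD44LoKitNeg (1.1e-04) and by 2.91 ± 0.52 than in CD44LoKitPos (7.4e-04). At E11 alone the difference from CD44LoKitNeg was 1.77 (edgeR, adjusted p = 0.00478). Against CD44Neg the call was lost at E11 alone (1.07, adjusted p = 0.0641) and without CD44High replicate 22 (1.21, adjusted p = 0.0382). With stage as a covariate, Ctsz was lower in CD44LoKitNeg than in CD44Neg by -0.86 (edgeR, adjusted p = 0.00385), a difference of -0.59 ± 0.32 that was not called without it (adjusted p = 0.207).

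Ctsd (chr7:142375911-142388038, minus strand), the main aspartic protease of lysosomes, showed 1 CD44High library inside the range of the others. Replicates 21 and 22 were at 1041.3 and 979.1 normalized CPM and replicate 20 at 297.9, while CD44Neg spanned 127.8 to 335.6 (median 231), CD44LoKitNeg 85.4 to 432.7 (median 207) and CD44LoKitPos 96.5 to 181.7. The log2 fold changes were 1.80 ± 0.37, 1.84 ± 0.42 and 2.56 ± 0.53 against CD44Neg, CD44LoKitNeg and CD44LoKitPos (edgeR, adjusted p = 7.4e-04, 0.00182 and 0.00297). Without CD44High replicate 21 or 22 all 3 calls were lost (highest adjusted p 0.0180, 0.0275 and 0.0247), and the last also without CD44LoKitPos replicate 18 or 19. At E11 alone neither of the first 2 was called (1.47, adjusted p = 0.0382, and 1.22, adjusted p = 0.0532). Gm49369, a gene model that reads into Ctsd on the same strand, shares 808 exon bases with it.

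Ctsa (chr2:164832873-164841032, plus strand) behaved likewise, with CD44High replicate 20 at 194.5 normalized CPM and replicates 21 and 22 at 461.9 and 603.7. CD44Neg was narrow, at 143.4 to 223.6 (median 164), CD44LoKitNeg at 113.0 to 298.7 (median 157) and CD44LoKitPos at 100.05 to 138.5. Replicate 20 therefore overlapped both CD44Neg and CD44LoKitNeg. Ctsa was called higher in CD44High by 1.32 ± 0.25, 1.31 ± 0.28 and 1.88 ± 0.35 on the log2 scale, in the order used for Ctsd (edgeR, adjusted p = 3.7e-04, 0.00112 and 8.9e-04). Without CD44High replicate 22 each call was lost (adjusted p = 0.0256, 0.0503 and 0.0155), the second also without replicate 21, and at E11 alone the first 2 were 1.35 and 0.87 and not called (adjusted p = 0.0330 and 0.110). Exons of Ctsa overlap those of Pltp by 495 bases and those of Neurl2 by 324 on the other strand, and exons of Ctsb overlap those of Fdft1 by 774.

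Ctsf (chr19:4855130-4860918, plus strand), a cysteine protease with an unusually long propeptide, was low. It spanned 0 to 11.4 normalized CPM in CD44Neg, 2.94 to 37.7 in CD44LoKitNeg, 3.76 to 6.66 in CD44LoKitPos and 12.5 to 38.8 in CD44High. No comparison of Ctsf was called, the nearest being CD44High against CD44Neg (2.66 ± 1.01, edgeR, adjusted p = 0.0602), where the libraries did not overlap. Its nearest genes were Kdm3b (r = 0.7872), Arhgef25 (0.7615) and Slc46a3 (0.7609).

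By mean level over all stages, Ctsa, Ctsb, Ctsd and Ctsz were ordered alike at the extremes, with CD44High at the top and CD44LoKitPos, which has no E11 library, at the bottom. At matched stages the bottom place was not kept by all. Ctsz at E10 was at 72.0 and 78.6 normalized CPM in CD44LoKitPos and at 51.4 and 51.9 in CD44LoKitNeg, and Ctsd at E9.5 at 96.5 and 85.4. None of the 4 was called in CD44LoKitPos against CD44LoKitNeg (edgeR, adjusted p = 0.0606 to 0.472) or against CD44Neg (0.114 to 0.326). Yet for Ctsa and Ctsz all CD44LoKitPos libraries lay below all CD44Neg libraries. For Ctsb against CD44LoKitNeg, the log2 fold change of -1.18 ± 0.41 was called with DESeq2 (-1.33, adjusted p = 0.00897), but was -0.60 with stage in the fit (edgeR, adjusted p = 0.206) and -0.58 at E9.5 and E10 alone (0.261). Pairs of these 4 genes followed each other with r values among the 3 highest for most of them: Ctsb with Ctsd (0.8702), Ctsb with Ctsz (0.8588), Ctsa with Ctsz (0.8398) and Ctsa with Ctsd (0.8282). Beyond cathepsins, Ctsa was closest to Lgmn, the asparaginyl protease that processes several cathepsins (0.8466), to the inhibitor Cstb (0.8456) and to Tagap (0.8398), Ctsb to Myeov2 (0.8605), and Ctsz to Rnase4 (0.9054).

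Levels can be set against each other between genes only per length, so normalized CPM was divided by the length of each principal transcript in GENCODE M21 and expressed as a share of the 10 genes. In CD44Neg, Ctsz (25.7% ± 5.6, SD, n = 10) and Ctsd (23.0% ± 4.9) held the largest mean shares. Ctsh held 39.2% ± 5.9 in CD44LoKitNeg (n = 6), where its share was above that of every other member in each of the 6 libraries. Ctss (26.6% ± 7.7) and Ctsc (20.6% ± 7.8) led in CD44High (n = 3), where Ctsh held 1.66% ± 0.49 and Ctsl 2.53% ± 1.2. In CD44LoKitPos (n = 3) the shares were led by Ctsd (20.99% ± 9.8) and Ctsc (18.6% ± 4.8).

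**Figure D3:**
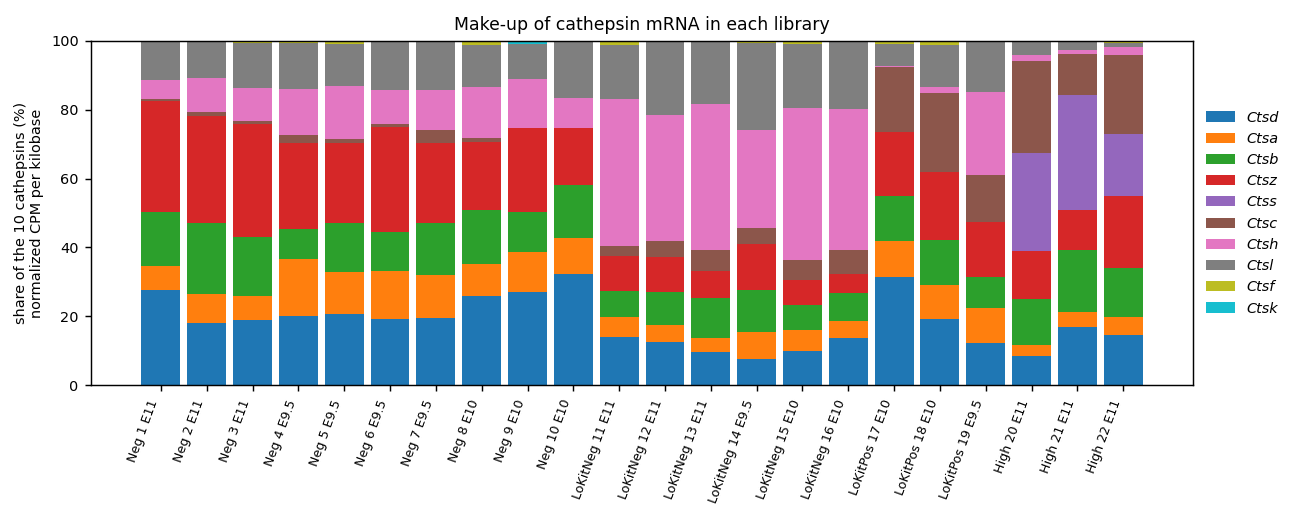
Share of each of the 10 cathepsin genes in their summed level, in percent of normalized CPM per kilobase of principal transcript, for each library labelled by population, replicate and stage. Ctsh takes 28.5% to 44.3% in the CD44LoKitNeg libraries, and Ctss, with 18.2% to 33.3%, appears in the CD44High libraries alone.

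The order depends on the length used, because the principal transcript of Ctsl is given as 6168 bases and its coding length as 1002, against 1617 and 999 for Ctsh. Per coding length, Ctsl led in CD44LoKitNeg (42.1% ± 4.1) ahead of Ctsh (22.4% ± 4.5), Ctsl (28.6% ± 3.4) and Ctsb (24.7% ± 5.2) led in CD44Neg, and Ctsb (32.2% ± 4.6) led in CD44High ahead of Ctsc (16.9% ± 6.6) and Ctss (16.02% ± 4.3). In CD44LoKitPos, Ctsl (25.5% ± 8.9) and Ctsb (21.2% ± 4.7) then led, ahead of Ctsd (14.2% ± 7.3) and Ctsc (12.8% ± 3.2). Under either length the share of Ctsh was higher in each CD44LoKitNeg library (at least 28.5% or 14.4%) than in any CD44Neg library (at most 15.6% or 9.27%). The summed level of the 10 genes per kilobase of principal transcript was 452 ± 113 in CD44Neg, 863 ± 370 in CD44LoKitNeg, 308 ± 56 in CD44LoKitPos and 2581 ± 811 in CD44High.

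Stage was examined within the 2 populations sampled at all 3 stages. In CD44Neg, Ctsb was at 126.1 to 270.0 normalized CPM at E9.5, 290.5 to 361.8 at E10 and 424.7 to 535.3 at E11, with no overlap between stages. It was the 1 member of 8 tested called between E11 and E9.5, where 0.684% of all genes were called and 0.391% were called higher (log2 fold change 1.27 ± 0.22, edgeR, adjusted p = 0.00817). That call was lost in 7 of the 10 fits without 1 library, with adjusted p up to 0.0471. The summed endothelial markers moved with it, from 1767 to 2204 normalized CPM at E9.5 to 3324 to 3949 at E11, with 3 of 6 called higher, and their part in the difference was not tested. Ctsz, at 106.2 to 148.0 at E9.5 and 245.6 to 296.3 at E11, did not overlap either (1.13 ± 0.22) but missed the threshold (edgeR, adjusted p = 0.0120), as did Ctsd (0.89 ± 0.19, edgeR, adjusted p = 0.0177). Both were called with no filter (adjusted p = 9.1e-04 and 0.00509) and with DESeq2 (1.2e-04 and 2.6e-04), which also called Ctsl (0.59, adjusted p = 0.00746). With no filter 1.81% of all genes were called, and with DESeq2 3.90%.

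The timing differed in appearance between genes. Ctsd stood at 127.8 to 173.7 at E9.5 and already at 266.8 to 304.9 at E10, with 211.0 to 335.6 at E11, whereas Ctsz at E10 (94.2 to 183.4) still overlapped E9.5. No member was called between E10 and E9.5 (0.0178% of all genes were), though 3 of 8 had an unadjusted p under 0.05 (15.2% of all genes did), and Ctsd (0.97 ± 0.19, edgeR, adjusted p = 0.0260) was called by DESeq2 (as were 2.06% of all genes) and with no filter (0.753%). None was called between E11 and E10 by edgeR or DESeq2 (edgeR called 0% of all genes), and 2 of 8 had an unadjusted p under 0.05 (8.68% of all genes did), or 1 to 3 without 1 library.

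In CD44LoKitNeg, the 3 E11 libraries were compared with the 3 earlier ones. Ctsl was at 1192.9 to 1396.5 normalized CPM at E11 and at 807.1, 568.1 and 809.8 before. Ctsh was at 572.6 to 998.7 at E11, and at 239.7 at E9.5 and 358.1 and 441.0 at E10. Ctsb was at 436.9 to 588.7 at E11 against 173.6 to 299.2 earlier. The libraries of the 2 periods did not overlap for these 3 genes, nor for Ctsa, Ctsd (219.2 to 432.7 against 85.4 to 195.5) and Ctsz (120.3 to 212.8 against 51.4 to 99.7), 6 of 8 members, where 25.3% of all genes did not overlap. Yet no member was called by edgeR, where 0.173% of all genes were: the smallest adjusted p-values were 0.0514 for Ctsb (1.14 ± 0.24), 0.0540 for Ctsl (0.86 ± 0.19) and 0.0702 for Ctsh (1.19 ± 0.28). All 8 fitted log2 fold changes were above 0, 6 of 8 had an unadjusted p under 0.05 (16.8% of all genes did), and DESeq2 called Ctsb, Ctsl and Ctsh (adjusted p = 3.2e-04, 2.8e-04 and 8.5e-04), as it did 5.09% of all genes. The summed endothelial markers of these libraries moved with the stage, from 2485 to 3564 normalized CPM before E11 to 5452 to 6311 at E11. The summed blood markers were at 112 to 289 before and at 8.35 to 16.1 at E11, where Runx1, a regulator of blood emergence, had no read. The share of counts from the ribosomal precursor Rn45s was 7.29% to 11.1% before and 17.4% to 19.2% at E11. The part of any of these in the stage differences was not tested. Whether the change from E10 to E11 differed between CD44LoKitNeg and CD44Neg was tested as an interaction over 11 libraries, and no member was called (edgeR called 0.00806% of all genes, and 4 of 9 members had an unadjusted p under 0.05, as did 10.7% of all genes). Without CD44LoKitNeg replicate 11 or 15, 0 members had one. The date in the labels, which do not say what it dates, follows the stage, so date and stage cannot be told apart.

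**Figure D4:**
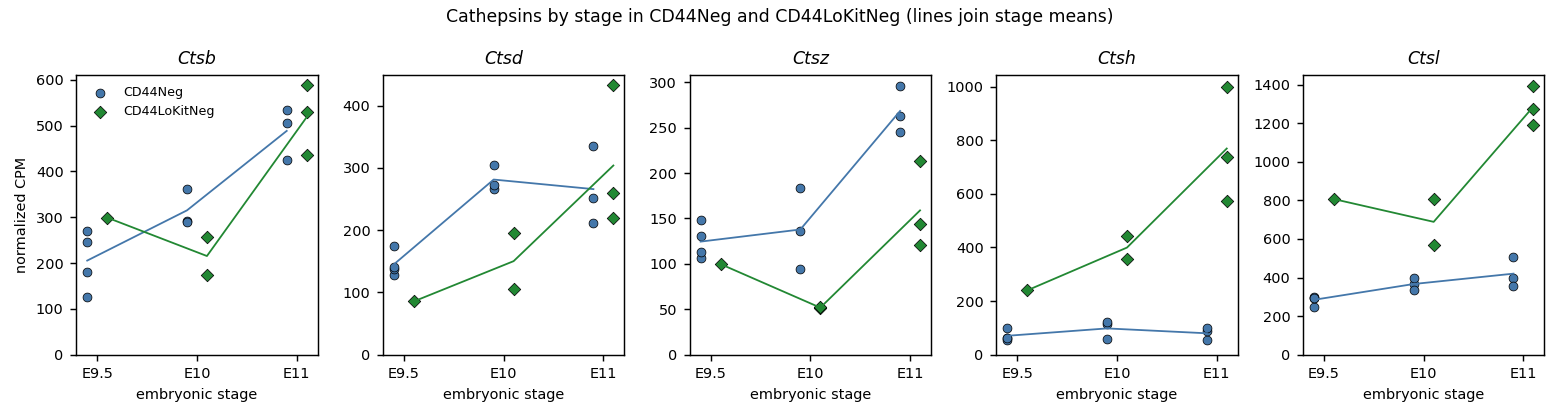
Normalized CPM of Ctsb, Ctsd, Ctsz, Ctsh and Ctsl by embryonic stage in the CD44Neg and CD44LoKitNeg libraries, with lines through the stage means. The CD44Neg libraries have Ctsb at 126.1 to 270.0 at E9.5 and at 424.7 to 535.3 at E11, and Ctsh and Ctsl lie higher in CD44LoKitNeg than in CD44Neg at every stage.

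Genes that act with the cathepsins were counted from lists. Of 13 other cathepsin genes, 3 were tested in the comparisons over 22 libraries. Ctse, an aspartic relative of Ctsd, was at 0 to 0.201 normalized CPM in CD44Neg, 0 to 7.54 in CD44LoKitNeg, 0 to 23.0 in CD44LoKitPos and 15.7 to 24.9 in CD44High. Ctso was higher in CD44High than in CD44Neg (1.87 ± 0.48, edgeR, adjusted p = 0.00527). Ctsw, known from killer lymphocytes, was listed at 0 in all 3 CD44High libraries and at 4.05 to 55.2 in CD44LoKitNeg, and was called lower (edgeR, adjusted p = 0.00255). Of 11 inhibitors, 6 were tested, and Cst3 and Cstb were higher in CD44High than in each other population. Cst3, the secreted cystatin C, was at 433.5, 882.5 and 1165.5 in CD44High and at most 369.9 in CD44LoKitPos (1.40 ± 0.32, edgeR, adjusted p = 0.00665). Cst7, cystatin F, an inhibitor of Ctsc, was at 32.8, 24.2 and 20.1 in CD44High and had no read in any other library, so that it passed the filter through CD44High alone.

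All 15 genes of sorting, processing and partner proteins were tested over the 22 libraries, and against CD44Neg Lgmn and M6pr were called higher and Igf2r lower in CD44High. Hpse was called as well, but it had no read in CD44Neg or CD44LoKitNeg and in only 1 CD44LoKitPos library. The receptors for mannose phosphate differed in direction. M6pr, the cation-dependent receptor, was at 216.4 to 287.7 in CD44High and 66.3 to 155.1 in CD44Neg (1.04 ± 0.23, edgeR, adjusted p = 0.00135). Igf2r, the cation-independent receptor, was at 16.01, 12.5 and 5.43 in CD44High and at 141.2 to 240.6 in CD44LoKitNeg (-4.09 ± 0.43, edgeR, adjusted p = 2.5e-07). It was lower in CD44LoKitPos than in CD44LoKitNeg as well (-1.77 ± 0.37, edgeR, adjusted p = 0.00432). Lgmn was at 360.2, 731.0 and 793.8 in CD44High and higher than in CD44LoKitPos by 5.20 ± 0.76 (edgeR, adjusted p = 6.0e-05). Of the 4 lysosomal transcription factors, Tfec was higher in CD44High than in CD44LoKitNeg (5.18 ± 1.09, edgeR, adjusted p = 9.7e-04). Its 48.8 to 78.2 normalized CPM in CD44High overlapped the 4.95 to 67.9 of CD44Neg, and none of the 4 was called against CD44Neg or CD44LoKitPos. Of 7 MHC class II genes, Cd74 encodes the invariant chain that Ctss degrades. It was at 7.98 to 12.8 normalized CPM in CD44High, had no read elsewhere, and so passed the filter through CD44High alone. In CD44High, H2-Aa had 0, 0 and 1 reads, H2-Eb1 2, 0 and 0, Ciita 0, 1 and 0, and H2-DMb1 1, 4 and 38. H2-Ab1 and H2-DMa also had reads in CD44Neg and CD44LoKitNeg. In CD44LoKitNeg against CD44Neg, none of the 24 genes of these lists that were tested was called by edgeR, and 5 had an unadjusted p under 0.05, where 32.6% of all genes tested did.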

How the data were processed

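RNA of 22 libraries of 25 sorted cells was amplified by the authors with SMART-Seq2 (polyA RNA, no molecular identifiers), and sequenced on a NextSeq 500. They clipped adaptors with FASTX, mapped with RNA STAR and counted with htseq-count. The submitters' processing notes name mm10, FastQC and HTSeq. Versions, annotation, strand setting and handling of shared reads are not given in the sources used here. The deposited values are raw counts per gene symbol, with 3912350 to 8657546 counts per library. All columns were matched to libraries by their labels. The 10 members, the gene lists, the tests and the thresholds were chosen with earlier results of these data known. All 10 members were named in every comparison, as were the 3 genes with the highest Pearson r to each, of which some are not reported here, and called genes of the lists.

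Figures and summaries were made in Python 3.11.15 (matplotlib 3.10.9, pandas 2.3.3), and counts were analysed in R 4.3.3 with DESeq2 1.42.0, limma 3.58.1 and edgeR 4.0.16. Genes passed filterByExpr (minimum count 10, minimum total count 15). Counts were scaled by TMM and tested with edgeR's quasi-likelihood test (prior count 0.125) and Benjamini-Hochberg adjustment over all genes, and called at an adjusted p under 0.01. CD44LoKitNeg was compared with CD44Neg over 16 libraries, the other populations in 1 fit of 22, stages within CD44Neg over 10 and within CD44LoKitNeg over 6, and the interaction over 11. Standard errors were derived from the F statistic. Correlations used log2 CPM with a prior count of 2. The scripts were tested on simulated data. Replicates were compared pairwise and none differed by as little as counting noise. Alternatives were DESeq2's size factors and Wald test, no filter, an adjusted p under 0.05, all 22 libraries in 1 fit, stage as a covariate, stages alone and each library left out. Leaving out the ribosomal precursor Rn45s (1.92% to 23.9% of counts), and coding length in place of transcript length, were chosen after seeing the data. Gene positions and overlaps are from GENCODE M21 (GRCm38, the assembly that mm10 names) and promoters from RefSeq (GRCm38.p6). Neither need be the authors' annotation.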

Additional observations from a re-analysis of the deposited data

Results flagged for a closer look

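Single libraries stood apart from the rest of their group in 6 of 26 groups of 4 to 10 libraries examined, by the gap of the highest or lowest value to its neighbour relative to the range. The cut-offs flag about 1 in 20 groups of independent, normally distributed values. Ctsk was mostly at 0, and the CD44Neg libraries from E9.5 are part of CD44Neg. The number of flags therefore cannot be set against that rate. Ctsa was at 223.6 normalized CPM in CD44Neg replicate 9, with the next highest of the population at 179.5, and at 298.7 in CD44LoKitNeg replicate 11, with the next highest at 169.9. In that same CD44LoKitNeg library Ctsf was at 37.7, whereas the other 5 libraries lay between 2.94 and 9.55. Ctsk was at 6.70 in CD44Neg replicate 9 and at 4.33 in CD44LoKitNeg replicate 13, with the other libraries of each population at or near 0. Among the CD44Neg libraries from E9.5, replicate 4 had the lowest Ctsl level, at 248.6, under 3 others between 295.0 and 297.9.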

How the results depend on the processing

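Across all alternatives, 1852 fold changes of members other than Ctss were recomputed: 1743 kept their direction and side of the threshold, 40 lost and 28 gained a call, and 41 changed sign. Of these refits 1393 left out 1 library, many of them from neither group compared, which changes little. For the 1266 refits of differences not called, staying uncalled counts as kept. None of the 586 refits of the 22 called fold changes changed sign. The counts of members called are out of the 8 with reads in every population. In CD44LoKitNeg against CD44Neg, 3 members were called, 4 with stage as a covariate (Ctsz, lower, was added) and 1 at E9.5 and E10 alone. In CD44LoKitPos against CD44LoKitNeg the count went from 1 to 2 at an adjusted p under 0.05, with DESeq2's size factors, with no filter and without Rn45s, and to 3 with DESeq2's Wald test. In CD44High it went from 4 to 2 against CD44LoKitPos with stage as a covariate, and from 5 against CD44Neg to 3 with that covariate and to 2 at E11 alone. Between stages of CD44Neg it went from 0 to 1 (E10 against E9.5) and from 1 to 3 (E11 against E9.5) at an adjusted p under 0.05 and with no filter, and to 1 and 4 with DESeq2. In CD44LoKitNeg at E11 it went from 0 to 3 with DESeq2. Leaving out 1 library, the members called numbered 3 to 7 in CD44High against CD44LoKitNeg, 2 to 5 against CD44LoKitPos and 2 to 5 against CD44Neg (each lowest without CD44High replicate 22), 1 to 2 in CD44LoKitPos against CD44LoKitNeg and against CD44Neg, and 0 to 2 in CD44Neg at E11 against E9.5. They were always 3 in CD44LoKitNeg against CD44Neg, and 0 in the other comparisons of stages.

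The sign changes were all in differences not called with all libraries. In CD44LoKitNeg against CD44Neg, Ctsa was -0.054 and Ctsb -0.0026 with stage as a covariate, and -0.37 and -0.031 at E9.5 and E10 alone. Ctsd there was 0.040 with DESeq2's size factors, 0.010 with no filter, 0.040 with DESeq2's Wald test, 0.25 at E11 alone and 0.035 without Rn45s. In CD44LoKitPos against CD44LoKitNeg, Ctsd was 0.020 at E9.5 and E10 alone, and Ctsz was 0.19 with stage as a covariate and 0.21 at E9.5 and E10 alone. Ctsl in CD44High against CD44Neg was -0.33 with stage as a covariate and -0.26 at E11 alone. The causes were not tested. Leaving out 1 library, the ranges that cross 0 were, in CD44LoKitNeg against CD44Neg, -0.22 to 0.14 for Ctsa and -0.35 to 0.16 for Ctsd, and in CD44High, -0.15 to 3.86 for Ctsh against CD44LoKitPos (called at the upper end) and -0.18 to 0.23 for Ctsl against CD44Neg. In E10 against E9.5 of CD44Neg they were -0.12 to 0.14 for Ctsa, -1.91 to 1.27 for Ctsf and -0.10 to 0.33 for Ctsz. In E11 against E10 they were -0.25 to 0.018 for Ctsa, -0.28 to 0.060 for Ctsd and -1.54 to 1.98 for Ctsf, and in E11 against E9.5 -1.01 to 0.82 for Ctsf. For Ctsf in CD44LoKitNeg by stage the range was -1.07 to 1.65, and in the interaction it was -0.83 to 2.67, with -3.48 to 0.033 for Ctsc.

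Over all genes, DESeq2's Wald test called 1746 genes in CD44LoKitNeg against CD44Neg where edgeR called 1121, and 126 were called at E11 alone and 375 at E9.5 and E10 alone. CD44LoKitPos against CD44LoKitNeg gave 552 calls (330 higher, 222 lower), but 491 (218 higher, 273 lower) with DESeq2's size factors, which moved the median log2 fold change of all genes from -0.02 to -0.16. It gave 366 once stage entered as a covariate, 1265 by the Wald test of DESeq2, 82 at E9.5 and E10 alone, and 65 to 687 without 1 library (lowest without CD44LoKitPos replicate 17). CD44LoKitPos against CD44Neg gave 451, 829 with DESeq2 and 159 to 630 without 1 library. CD44High gave 390 calls against CD44LoKitPos (716 with DESeq2) and 1864 against CD44Neg (1011 at E11 alone). Without 1 library these were 251 to 408 and 1340 to 1889, and 1334 to 2176 against CD44LoKitNeg. No paired analysis was run. The replicate numbers run on through all libraries, and the sources used here do not give which libraries share embryos. The fit with stage as a covariate stands in for a block by the date in the labels, which follows stage. For CD44High against CD44LoKitPos, which share no stage, it borrows the E11 effect from the other populations. With 3 libraries or fewer in CD44LoKitPos, in CD44High and at most stages, and 25 cells in each library, these comparisons rest on few cells. Replicates differed by more than counting noise, and whether spread or read depth limits the calls was not tested. Ctsk and, in some CD44Neg libraries, Ctsf lie near the floor of 0.347 to 0.815 normalized CPM that 3 counts allow.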
